A study of Homo sapiens with 3 samples.

Results

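The genes for the condensin complexes and for the SMC5/6 complex's ATPase pair were examined in a table of RNA recovered with CTCF, a zinc-finger protein that anchors chromatin loops. The members were taken by name: the ATPases SMC2 and SMC4, shared by both condensins, the condensin I subunits NCAPD2, NCAPG and NCAPH, the condensin II subunits NCAPD3, NCAPG2 and NCAPH2, and SMC5 and SMC6. All 10 were among the 17201 listed genes and 0 were absent. The cells were U2OS, a human osteosarcoma line, without any genetic change named in the labels. In this assay, PAR-CLIP, the cells took up 4-thiouridine (400 µM, 16 to 24 h) and were exposed to 400 mJ/cm2 of ultraviolet light of 365 nm, so that proteins touching labelled RNA became crosslinked to it. CTCF was then precipitated from nuclear lysate and the attached RNA sequenced. The values are 1 count per gene from a merge of 2 biological replicates that used different antibody lots. An input library, a control precipitation and RNA abundance were not analysed here, so a count is an amount recovered, not an enrichment.

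SMC proteins are long coiled-coil ATPases that work as dimers, closed into a ring by a kleisin subunit. Condensins use this ring to fold chromosomes before cell division: condensin II is nuclear through the cell cycle, while condensin I reaches the chromosomes once the nuclear envelope breaks down. NCAPH and NCAPH2 are their kleisins, and the NCAPD and NCAPG proteins are HEAT-repeat subunits that bind the kleisin and DNA. The SMC5/6 complex acts in DNA repair and in resolving joined chromosomes, and it also restricts some viral DNA. CTCF is best known for stopping cohesin, the related SMC ring of interphase loops.

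The table's counts summed to 1322047, ranged from 6 to 6801 and had a median of 31 over all genes and of 43 over the 12220 protein-coding genes. The table lists 60.6% of the RefSeq protein-coding genes that match a single Ensembl identifier. Among markers of the labelled cell type, 7 of 8 mesenchymal genes were listed, at 8 (ALPL) to 1277 counts (FN1), and COL1A2 was absent. Of 4 epithelial markers CDH1 had 13 counts and KRT8 206, and 0 of 4 blood markers and 0 of 2 liver markers were listed. With 1 merged sample there is no replicate error and no test between groups. The 95% intervals below are exact and cover counting error only, and reads amplified by PCR are not independent molecules.

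How much of each gene was counted bears on every value here. Each count belongs to an interval in hg19 coordinates, and an interval need not span its gene. Those of SMC2 (7.90 kb), SMC4 (5.06 kb), NCAPD2 (17.8 kb) and NCAPD3 (3.93 kb) are shorter than these genes are known to be, so their counts cover a part of each gene. The other 6 intervals were between 15.3 and 95.9 kb long. Whether the intervals of the related genes named further below span those genes was not checked. Counts are therefore also given per kb of interval. Each gene was also set against the 343 other listed genes in its group among 50 equal groups by length. The value is the share of them with a lower count, with ties weighted 0.5.

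SMC5 stood highest of the 10 genes. Its ATPase is the partner of SMC6 in the repair complex, and its interval on chromosome 9 (72873937 to 72969804) held 432 counts, with a 95% Poisson interval of 392 to 475. It ranked 403 among all listed genes and exceeded 95.6% of genes of similar length, at 5.47 times their median of 79. SMC6 had 204 counts (177 to 234) in an interval of chromosome 2 (17845079 to 17935070), above 83.2% of similarly long genes. The lengths of both intervals were similar, at 95.9 and 90.0 kb. SMC5 held 67.9% of the pair's counts (95% Clopper-Pearson interval 64.1 to 71.5%) and 66.5% when counted per kb, so the difference exceeded counting error on both scales. Neither interval overlapped another listed gene. SMC5-DT, an antisense gene whose interval ends 155 bases before that of SMC5, had 42 counts over 64.9 kb. KLF9, the next listed gene on the other side, had 30. Beside SMC6, the interval of GEN1, a nuclease gene for joined DNA molecules, begins 55 bases away and had 53 counts, and VSNL1 on the other side had 21. By count, SMC5 and SMC6 thus stood above the listed genes next to them, but the intervals differ in length. Per kb, SMC5 had 4.51, beside 0.65 for SMC5-DT and 0.999 for KLF9. SMC6 had 2.27, beside 0.18 for VSNL1 and 1.71 for GEN1, whose interval is 30.95 kb long. Whether SMC6 differs from GEN1 per kb was not tested.

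The shared condensin ATPases had few counts. SMC2 on chromosome 9 (106856577 to 106864474) had 39 (27.7 to 53.3), above 73.2% of similarly long genes. SMC4 on chromosome 3 (160117062 to 160122124) had 16 (9.15 to 26.0), the lowest of the 10 and above 49.7% of similarly long genes. Per kb these counts were 4.94 for SMC2 and 3.16 for SMC4, with overlapping intervals (3.51 to 6.75 and 1.81 to 5.13). SMC2 held 70.9% of their summed counts (57.1 to 82.4%) and 61.0% per kb. The SMC4 interval lies wholly inside that of ENSG00000248710, a protein-coding gene with 385 counts whose interval reaches from before IFT80 to the last base of TRIM59. IFT80, with 54 counts, also shares 0.258 kb at 1 end. Reads in the SMC4 interval could belong to SMC4 or to ENSG00000248710, and those in the shared 0.258 kb also to IFT80. As both values come from partial intervals, the place of SMC2 and SMC4 in the order by count is that of these intervals, not of the whole genes.

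Among the condensin I subunits the kleisin NCAPH, on chromosome 2 (97001525 to 97039583), had 187 counts (161 to 216), above 89.8% of similarly long genes. The HEAT-repeat subunit NCAPG, on chromosome 4 (17812525 to 17846485), had 137 (115 to 162), above 85.7%. NCAPD2, the other HEAT-repeat subunit, lies on chromosome 12 (6602522 to 6620358) and had 37 (26.1 to 51.0), above 60.1%. Per kb, NCAPH had 4.91, NCAPG 4.03 and NCAPD2 2.07, so NCAPD2 was lowest of the 3 on either scale. The interval of SCARNA10, a small guide RNA of the Cajal body, lies inside that of NCAPD2 and had 18 counts over 0.247 kb. Reads there could be of SCARNA10, and 16 more counts belong to MRPL51, which shares 0.242 kb with the other end. Without both, 3 counts would remain for NCAPD2 as a lower bound. NCAPG shares 4.85% of its interval with LCORL, a transcription factor gene with 143 counts. The same subtraction left 0 for NCAPG, SMC4 and NCAPD3, so the overlaps alone set no lower bound above 0 on their own counts, and their places in the order below include any shared reads.

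In condensin II the order of the roles was different. NCAPG2, on chromosome 7 (158424003 to 158496395), had 180 counts (155 to 208), above 86.2% of similarly long genes. The kleisin NCAPH2, on chromosome 22 (50946645 to 50961901), had 45 (32.8 to 60.2), above 70.4%. NCAPD3, on chromosome 11 (134020014 to 134023944), had 43 (31.1 to 57.9), above 81.9%. The NCAPD3 interval was the shortest of the 10, and its 10.9 counts per kb (7.92 to 14.7) were the highest, against 2.95 for NCAPH2 and 2.49 for NCAPG2. JAM3, an adhesion gene with 100 counts, covers 47.9% of that interval, and which gene those reads came from cannot be told apart here. NCAPG2 and NCAPH2 overlapped no listed gene.

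**Figure D1:**
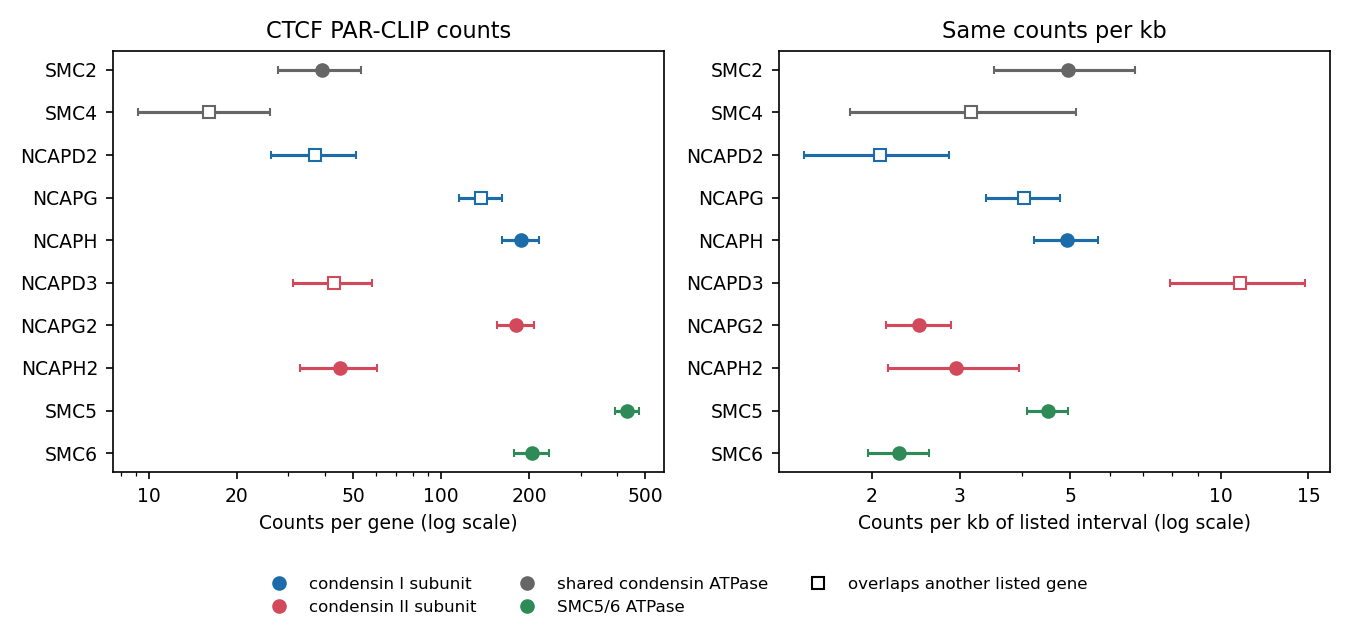
Counts per gene (left) and counts per kb of listed interval (right) on log scales for the 10 genes, with 95% Poisson intervals for counting error from 1 merged sample. Colours give the complex and open squares mark the 4 genes that overlap another listed gene. SMC5 is highest by count (432) and NCAPD3 per kb (10.9).

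Set against each other by role, the subunits of the 2 condensins did not differ in a single direction. NCAPH held 80.6% of the kleisin counts (74.9 to 85.5%) and NCAPH2 the rest, and per kb the share was 62.5%. For NCAPG and NCAPG2 the share of NCAPG was 43.2% by count (37.7 to 48.9%) but 61.9% per kb, since the NCAPG2 interval is longer, at 72.4 against 34.0 kb. NCAPD2 held 46.3% of its pair with NCAPD3 (35.03 to 57.8%), an interval that holds an equal share, and 15.9% per kb. The 3 condensin I subunits summed to 361 counts and the 3 of condensin II to 268, so condensin I held 57.4% (53.4 to 61.3%). That share was 40.2% when counts per kb were summed, a sum in which NCAPD3 weighs most, but 57.9% when summed counts were divided by summed interval length, at 4.02 per kb for condensin I and 2.93 for condensin II. It was 43.8% (38.9 to 48.9%) without the kleisins, 71.8% without NCAPG and NCAPG2 and 59.0% without NCAPD2 and NCAPD3. The direction thus depended on how length was treated and on the kleisins, and no order of condensin I over condensin II can be read from these counts.

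Ordered by count, the 10 genes fell into levels within which neighbours could not be separated. SMC5 exceeded SMC6 beyond counting error, while SMC6, NCAPH and NCAPG2 (204, 187 and 180) followed so closely that each step's 95% interval held an equal share. NCAPG, at 137, was below NCAPG2, which held 56.8% of their counts (51.1 to 62.3%). A gap then separated NCAPG from NCAPH2, with 75.3% of their counts in NCAPG (68.4 to 81.4%). NCAPH2, NCAPD3, SMC2 and NCAPD2 (45, 43, 39 and 37) could not be separated step by step, and SMC4 was below NCAPD2, which held 69.8% (55.7 to 81.7%). The 5 genes above 100 counts were those with the 5 longest intervals. Among the other 5 the order did not follow length: NCAPD2, with the longest interval of these, had 37 counts and NCAPD3, with the shortest, had 43. The range narrowed from 27.0-fold by count to 5.27-fold per kb, and to 2.18-fold per kb among the 6 genes that overlap no other (2.27 to 4.94).

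**Figure D2:**
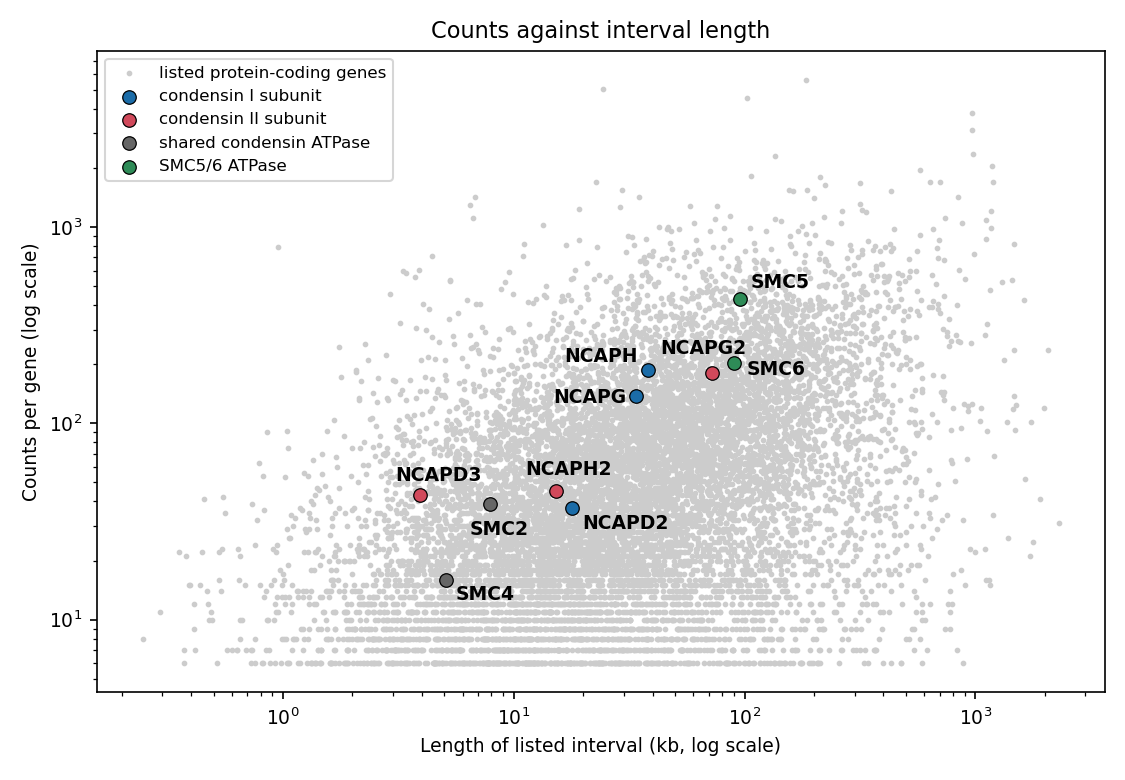
Count against length of the listed interval in kb, both on log scales, for the listed protein-coding genes (grey) and the 10 members (coloured by complex). The members with 16 to 45 counts have intervals under 18 kb and those with 137 to 432 counts have intervals over 33 kb.

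**Figure D3:**
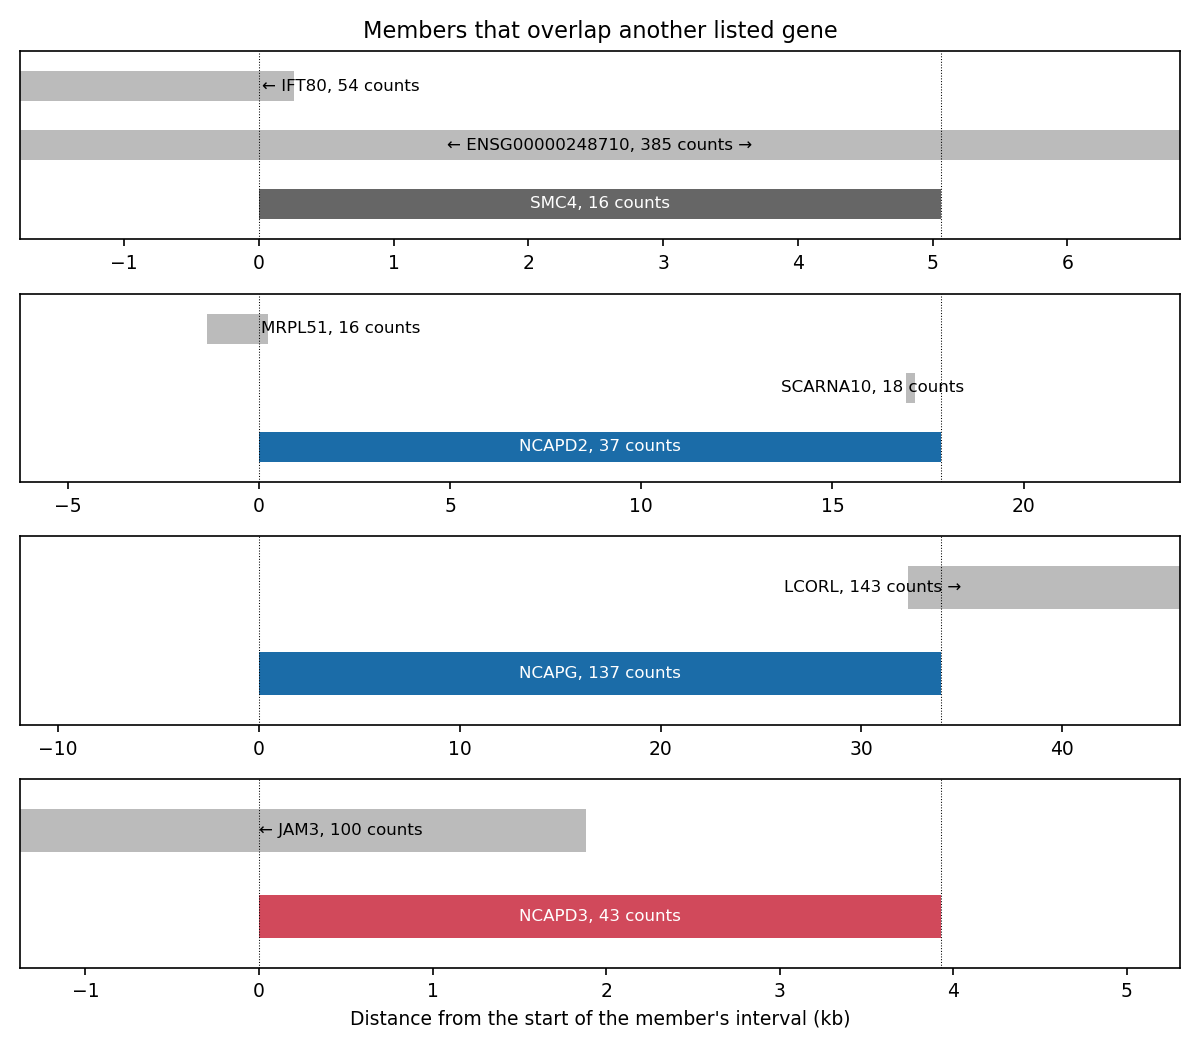
Intervals of the 4 members that overlap another listed gene (coloured) with the overlapping genes (grey), as distance in kb from the start of the member's interval. Arrows mark genes that run past the plotted range. SMC4 lies wholly inside another gene, and JAM3 covers 47.9% of the NCAPD3 interval.

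Against the rest of the table, the 10 genes had a median of 91 counts, beside 31 over all listed genes and 43 over protein-coding ones. There were 5 with 100 counts or more (NCAPG, NCAPG2, NCAPH, SMC5 and SMC6), where 20.5% of all listed genes and 26.1% of the protein-coding ones reached that count. For their length, 9 of the 10 lay above the median of listed genes and SMC4 lay at it, where 49.2% of all listed genes and 53.8% of protein-coding genes lay above. The 9 include NCAPD2, NCAPD3 and NCAPG, whose counts hold any reads shared with the genes that overlap them. Per kb, all 10 lay above the protein-coding median of 1.54, from NCAPD2 at 2.07 upward, and their own median was 3.60. That median of 1.54 is over intervals of every length, so it is no length-matched measure. SMC4, at 3.16 per kb, lay above it with 16 counts, the median for its length. Together the 10 genes held 1320 counts, 0.0998% of the summed count. These are descriptions of a list chosen by name in 1 sample.

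The non-ATPase partners of SMC5 and SMC6 were all listed too, with a median of 73 over 7 genes. NSMCE2, the SUMO ligase that docks on SMC5, had 222 counts over 90.6 kb, close to the 204 of SMC6 over a similar length. SLF2, which with SLF1 brings the complex to damaged DNA, had 121, and SLF1 had 80. The kleisin NSMCE4A had 73, and its germline relative EID3 had 7. The RING protein NSMCE1 had 12 counts over 43.8 kb, above 11.95% of similarly long genes, and its partner NSMCE3 had 7 over 1.68 kb. Of these 7 genes 4 were above the median for their length and 2 had 100 counts or more, shares near the 53.8% and 26.1% of protein-coding genes. By count, the subunits that bind one another in the complex thus ranged from near the floor of the table to the level of SMC6. Per kb the order differed, and the median of the 7 was 4.03. EID3 had 4.79 and NSMCE3 4.17, above the 2.27 of SMC6, while NSMCE1 (0.274) and SLF1 (1.01) were below it. With intervals of 1.46 and 1.68 kb, EID3 and NSMCE3 would exceed 2.27 per kb even at the lowest listed count of 6. For their length both stood low, above 14.6% and 18.7% of listed genes.

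From the list of condensin regulation and mitotic chromosome structure 11 genes are reported, and 1 more was left out of these counts. The 11 were all listed, with a median of 79 counts, and 10 lay above the median for their length, where 53.8% of protein-coding genes did. MKI67, which coats mitotic chromosomes, was highest at 1545. TOP2A, the topoisomerase of the chromosome axis, had 285, and KIF4A, a kinesin of the same axis, had 181. MCPH1, the inhibitor of condensin II, had 193 counts over 237 kb. The retinoblastoma gene RB1 was lowest, at 22 over 56.99 kb. Of the 11, 4 had 100 counts or more, beside 26.1% of protein-coding genes.

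SMC1A and SMC3, the ATPases of mitotic cohesin, had more counts than those of condensin and SMC5/6. SMC1A had 768 (715 to 824) and SMC3 658 (609 to 710), or 15.8 and 17.8 per kb, while SMC2, SMC4, SMC5 and SMC6 had between 2.27 and 4.94 per kb. These counting intervals do not overlap, but without replicates the difference has no test. The values of SMC2 and SMC4 are those of partial intervals, so the whole genes are not compared here. SMCHD1, an ATPase of the inactive X chromosome, had 594 counts over 149 kb. Its 3.98 per kb was within the range of the condensin and SMC5/6 genes. SMCHD1 exceeded 97.4% of similarly long genes, beside 98.8% for SMC1A, 98.5% for SMC3 and 95.6% for SMC5, the highest member. The meiotic cohesin ATPase SMC1B had 15 over 69.5 kb, not separable by counting error from the 16 of SMC4 over 5.06 kb. Per kb, however, SMC1B had 0.216 and SMC4 3.16. For their length, SMC1B exceeded 14.1% of listed genes and SMC4 49.7%. RAD50 of the MRN repair complex had 24 over 23.9 kb. Over the 14 other cohesin genes, the median per kb was 1.65, from 0.497 for RAD21L1 to 16.9 for RAD21, and 9 lay above the median for their length, where 53.8% of protein-coding genes did. By count they ran from 8 for ESCO2 to 831 for NIPBL.

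**Figure D4:**
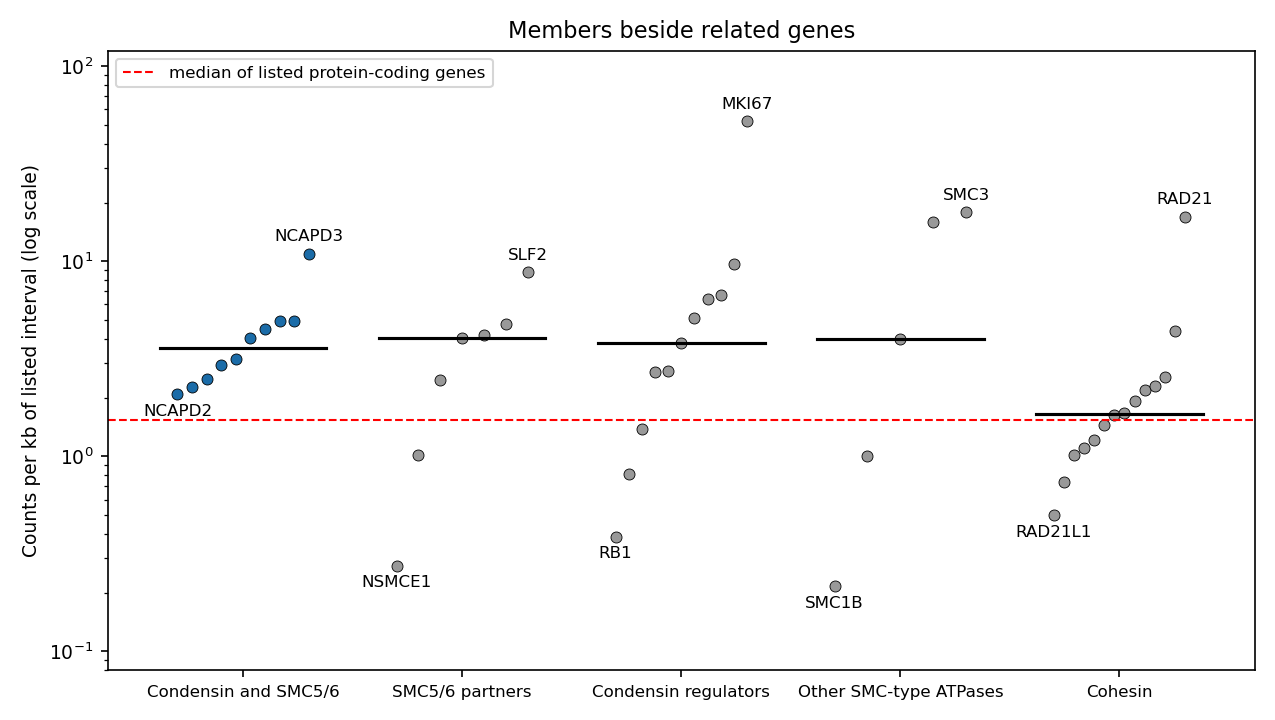
Counts per kb of listed interval (log scale) for the 10 members (blue) and the related genes (grey), each point a gene, with the median of each list as a black bar and the highest and lowest gene named. The red dashed line is the median of listed protein-coding genes of all lengths, 1.54. All 10 members lie above it.

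Condensin genes belong to the cell-cycle genes whose promoters often carry a CHR element (TTTGAA) beside CCAAT boxes. The counts do not measure promoters, so the sequences below describe the genes and bear on no count. RefSeq windows of 250 bases before to 50 after a gene's start (GRCh38.p14, a later build than that of the counts) were found for 9 of the 10 genes, 12 windows in all, and not for NCAPH2. TTTGAA on either strand stood in 6 of the 12 windows, 1 each for SMC2, SMC4, NCAPD2, NCAPD3, NCAPG and NCAPG2, against 15.2% of all 35116 windows. It was not found in the windows of NCAPH, SMC5 and SMC6. CCAAT stood in 3 of the 12 (NCAPD2, NCAPD3 and NCAPH), against 34.6% of all windows. The E2F-type word TTTCGCGC stood in the SMC6 window, against 0.515% of all. All words were searched on both strands, and none of the printed matches overlap.

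The 220 bases before the start are shown for 3 genes because they hold the plainest cases: a lone TTTGAA 35 bases before the start of NCAPG, a TTTGAA with 4 CCAAT boxes in NCAPD2, and the E2F-type word in SMC6. They are chr4:17810759-17810978 on the plus strand, chr12:6493882-6494101 on the plus strand and chr2:17753811-17754030 on the minus strand. Capitals mark the matches, which read ATTGG for CCAAT and GCGCGAAA for TTTCGCGC where the match is on the other strand.
NCAPG: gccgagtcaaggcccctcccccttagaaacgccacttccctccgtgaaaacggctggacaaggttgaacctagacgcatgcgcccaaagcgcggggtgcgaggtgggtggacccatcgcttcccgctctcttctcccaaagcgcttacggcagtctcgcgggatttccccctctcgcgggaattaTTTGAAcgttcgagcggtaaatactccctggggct
NCAPD2: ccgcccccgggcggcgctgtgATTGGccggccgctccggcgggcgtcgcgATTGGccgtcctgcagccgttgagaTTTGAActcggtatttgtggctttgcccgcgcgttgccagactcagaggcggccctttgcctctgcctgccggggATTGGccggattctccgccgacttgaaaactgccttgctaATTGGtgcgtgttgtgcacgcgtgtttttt
SMC6: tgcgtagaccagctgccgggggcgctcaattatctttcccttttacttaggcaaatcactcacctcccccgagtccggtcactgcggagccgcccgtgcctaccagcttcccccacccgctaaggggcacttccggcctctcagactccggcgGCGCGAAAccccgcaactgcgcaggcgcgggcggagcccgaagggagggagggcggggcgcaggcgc
In NCAPD2 all 4 CCAAT boxes are on the other strand, and the nearest to the start lies 30 bases before it.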

How the data were processed

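PAR-CLIP of CTCF in U2OS cells gave 3 labelled samples: 2 biological replicates and their merge. Only the merge had a file used here. The authors deposited whole-number counts per Ensembl gene, not scaled for depth or length, and merged the replicates before counting, per the labels. Bowtie, bedtools and hg19 are named in the submitters' processing notes. The sources used here do not give versions, the use of strand, or whether reads or conversions were counted. Of the 17201 identifiers, 16520 were paired with a symbol, and 40.8% of genes overlapped another listed gene and may share its reads. The members, gene lists and rules were chosen with earlier results of these data known. All members were named, and of the related lists the highest, the lowest and every SMC5/6 partner, besides others described by role that were chosen after their values were seen. From the list of condensin regulators, 1 gene is not reported here and was left out of its counts. Percentiles compare a gene with the others in its group among 50 equal groups by interval length (ties weighted 0.5), tested on simulated data. Intervals are exact, at 95% (Poisson for counts, Clopper-Pearson for shares), computed in Python 3.11.15 with scipy 1.17.1. Alternatives covered scale, thresholds, length groups, overlaps and left-out pairs.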

Additional observations from a re-analysis of the deposited data

How the results depend on the processing

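At 200 counts or more, there were 2 of the 10 genes, against 5 at 100. The median of 91 counts was 183.5 over the 6 genes that overlap no other, 42 when the counts of overlapping genes were subtracted, and 3.60 per kb, a scale chosen after seeing the data. The condensin I share of 57.4% was 40.2% per kb, 71.8% without NCAPG and NCAPG2, 43.8% without NCAPH and NCAPH2, while 57.9% by summed counts over summed length (added after seeing the data) and 59.0% without NCAPD2 and NCAPD3 kept its direction. Within pairs, NCAPG's share of 43.2% became 61.9% per kb because its interval is shorter. NCAPD2 exceeded 60.1% of all listed genes of its length but 49.8% of the protein-coding ones; the cause was not tested. The number of genes above the median for their length was 9, but 8 among protein-coding genes and 6 of 6 without overlapping genes. The scale per kb of coding length was not run, since no coding lengths were used here. No paired analysis was possible because the counts are of a merge, and for the same reason neither replicate could be left out. By count, the order of the genes under about 50 counts was not resolved apart from SMC4. Per kb, SMC4 (3.16) stood above NCAPD2 (2.07). Whether depth limits this order was not tested.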
